A study of Mus musculus with 12 samples.

Results

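The question asked of these libraries was whether the combined CBL and RUNX1 mutations changed gene expression differently in mature myeloid cells and in their progenitors. For each gene the difference between double mutant and wild type was taken in Ly6G+ cells and in HSCPs, and the second was subtracted from the first. The result, called the interaction here, is above 0 where the gene stood relatively higher in double mutant Ly6G+ cells than the progenitors would predict. It was computed for every gene with at least 1 TPM in at least 2 of 8 libraries, which 12639 of 28987 genes met. The rule used levels and not the interaction. A gene could still meet it through a single group, which is stated below for the called genes it touches.

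RNA had been sequenced in 12 libraries of mouse bone marrow, all on the C57BL/6 background, and 8 of them enter the contrast. They form 4 groups of 2, namely Ly6G+ myeloid cells of CBL/RUNX1 mutant and of wild type marrow, and HSCPs (haematopoietic stem cells and progenitors) of CBL/RUNX1 mutant and of wild type marrow. Per the labels' protocols, marrow came from individual mice, HSCPs were enriched with beads against CD117, the mutant clone was isolated by FACS, and mutant Ly6G+ cells were sorted the same way. The protocol text is shared by all libraries and names no separate sort for wild type cells, so a difference in preparation and an effect of the mutations cannot be told apart. The alleles, their route into the mice, age and treatment are not given in the sources used here. The labels number the libraries 1 and 2 in each group without saying what the number marks, so p-values measure the spread between these libraries.

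CBL is a ubiquitin ligase that tags activated growth factor and cytokine receptors for degradation and so ends their signal. RUNX1 is a transcription factor that binds DNA together with CBFB and directs the formation of stem cells, granulocytes, platelets and lymphocytes. Ly6G is a surface protein of neutrophils and their late precursors, whereas CD117 is the receptor KIT of stem cells, progenitors and mast cells.

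The values are TPM, the length-corrected share of a gene in a library's transcripts, and differences are given on the scale log2(scaled TPM + 1). The added 1 shrinks differences of genes near or under 1 TPM. How many reads stand behind a TPM value cannot be read from the table. One double mutant Ly6G+ library stood apart. Across genes, the log2 difference between library 1 and library 2 had an SD of 0.992 in double mutant Ly6G+ cells, while the 3 remaining groups had 0.360 (wild type Ly6G+ cells), 0.348 (double mutant HSCPs) and 0.291 (wild type HSCPs). Double mutant Ly6G+ library 1 correlated more with double mutant HSCPs library 1 (r = 0.899) than with its own replicate (r = 0.887). Ly6g, which encodes the sort marker, had 389 and 1448 TPM in double mutant Ly6G+ cells and 2017 and 2026 TPM in wild type Ly6G+ cells. In HSCPs it had 25.2 and 14.2 TPM in the double mutant and 482 and 504 TPM in wild type. Kit, the target of the HSCPs kit, had 38.0 and 5.89 TPM in double mutant and 8.93 and 13.3 TPM in wild type Ly6G+ cells, and 50.8 and 38.0 TPM in double mutant and 25.6 and 24.5 TPM in wild type HSCPs. The neutrophil genes S100a8 and S100a9 together took 7.23% and 24.8% of TPM in double mutant and 34.5% and 33.5% in wild type Ly6G+ cells, and 8.11% and 9.54% in double mutant and 28.9% and 31.4% in wild type HSCPs. Wild type HSCPs thus carried S100a8 and S100a9 near the level of wild type Ly6G+ cells, while Ly6g was lower. Mature neutrophil genes were lower too, at a mean log2 level of 6.32 and 6.41 against 9.04 and 9.05 in wild type Ly6G+ cells. The part of neutrophil transcripts in the HSCPs differences was not tested. Siglech, a marker of plasmacytoid dendritic cells, was at 158 TPM in double mutant Ly6G+ library 1 and at 11.2 TPM in library 2. Results below are therefore given without each of these 2 libraries where that moves them.

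The genes with the clearest interaction were few. With limma and Benjamini-Hochberg adjustment, 13 of 12639 genes passed at an adjusted p under 0.05 (0.103%), 11 with an interaction above 0 (0.087%) and 2 below it (0.0158%). At an unadjusted p under 0.05 there were 1226 genes (9.7%). The balance of called genes depended on the setting. It was 14 above and 17 below 0 with 5 added in place of 1. With no filter on low values, and in a fit of all 12 libraries, it was 10 above and 9 below. Under the other settings that keep all libraries, more called genes lay above 0 than below. In 10 of the 13, the difference between Ly6G+ cells and HSCPs was smaller in double mutant than in wild type marrow. Among these, Mecom, Zfp503, Gm6829 and Gm16569 reached 1 TPM in a wild type group only, so their smaller double mutant difference was fixed in advance. The 10 therefore cannot be set against the share of all genes tested. That share was 60.1%, though 42.2% with double mutant Ly6G+ library 2 alone. Of the 13, the double mutant differed from wild type in both cell types with the same sign in 5 and with opposite signs in 1. It differed in Ly6G+ cells alone in 3 and in HSCPs alone in 4. These classes rest on a spread pooled over the groups, though the double mutant Ly6G+ libraries spread more widely. A fit without 1 library leaves its group with 1, whose own spread then drops out of the pooled variance. Counts from such fits are thus not comparable with the 13. The count was far larger without 1 of the double mutant Ly6G+ libraries, the group that spread most. It was 1 without wild type Ly6G+ library 1, 2 without wild type Ly6G+ library 2, and 1 without any single HSCPs library. Ighg2b remained called in all 8 of these fits, and Cpa3 in 3. Gm10171, tested in 6 of these fits, was called in none, and the other 10 passed only without 1 of the double mutant Ly6G+ libraries. For 5 of the 13 (Mecom, Zfp503, Gm10171, Gm16569 and Gm6829) only 1 group reached 1 TPM, so they entered the test through the group where they are high, and their interaction restates the difference within 1 cell type.

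**Figure D1:**
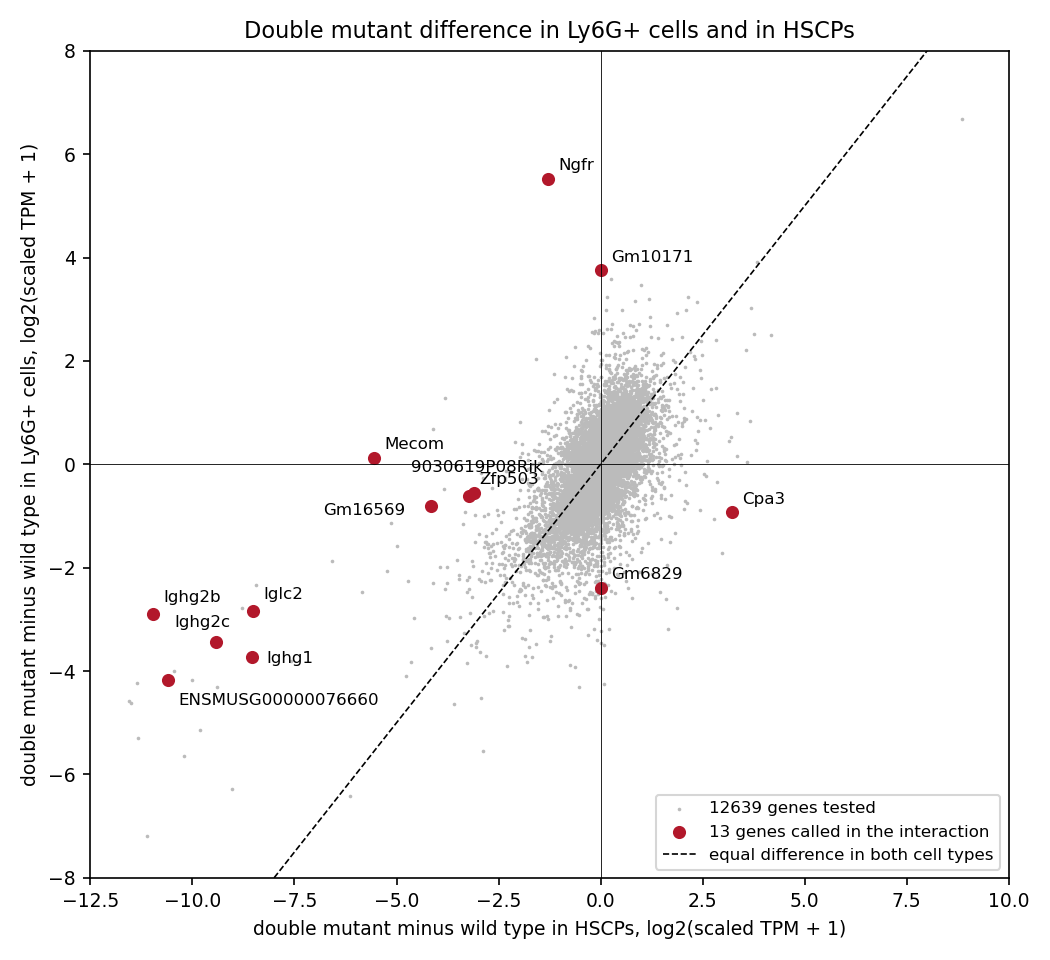
Difference between double mutant and wild type in Ly6G+ cells (vertical axis) against that in HSCPs (horizontal axis), both as log2(scaled TPM + 1), for 12639 genes. The dashed line marks equal differences in both cell types. The 13 labelled genes passed the interaction test, and Ngfr (5.52 against -1.30) and Cpa3 (-0.92 against 3.21) lie on opposite sides of the line.

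Cpa3, the gene of carboxypeptidase A3 from mast cell granules, was the only gene called in opposite directions in the 2 cell types. It had 21.8 and 15.3 TPM in double mutant Ly6G+ cells, against 26.9 and 19.5 TPM in wild type Ly6G+ cells. In HSCPs it had 89.3 and 72.4 TPM in the double mutant, against 5.27 and 4.52 TPM in wild type. The HSCPs groups were far apart, while the TPM of the Ly6G+ groups overlapped. On the scaled values the gene fell by 0.92 in double mutant Ly6G+ cells (limma, adjusted p = 0.0443) and rose by 3.21 in double mutant HSCPs (adjusted p = 0.000845). The interaction was -4.13 ± 0.25 (SE, adjusted p = 0.00685). The scaling factors shift double mutant differences of well expressed genes by 0.64 in Ly6G+ cells and 0.63 in HSCPs on the log2 scale, less at low levels, so the fall in Ly6G+ cells is relative to most other genes. With no scaling the interaction of Cpa3 was -4.10, and over 37 named genes the interaction moved by a median of 0.06 and by at most 0.36, for Mecom. In a fit of all 12 libraries Cpa3 did not pass.

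Mecom encodes a zinc finger transcription factor that maintains haematopoietic stem cells. It was at 0.165 TPM in both double mutant Ly6G+ libraries and at 0.0527 and 0.0109 TPM in wild type ones. In HSCPs it was at 0.510 and 0.786 TPM in the double mutant and at 68.5 and 47.3 TPM in wild type. The transcript was thus plentiful in wild type HSCPs alone, and all 3 other groups were under 1 TPM. The difference was 0.13 in Ly6G+ cells (limma, adjusted p = 0.675), and Mecom fell by 5.55 in double mutant HSCPs (adjusted p = 0.00018). The interaction of 5.68 ± 0.30 (SE, adjusted p = 0.00462) restates this fall, since all 4 Ly6G+ libraries were near 0, and is no comparison of an effect between cell types.

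Cpa3 and Mecom lie on chromosome 3 of the mouse genome build GRCm38, on the minus strand, at 20215620 to 20242181 and 29951296 to 30548008. Because RUNX1 binds DNA at a short core motif, TGTGGT or its reverse complement ACCACA, the 250 bases before each start site listed by RefSeq (GRCm38.p6) are shown, with the motif in capitals where present. Mecom has 2 such starts.
Cpa3 (chr3:20242182-20242431, minus strand): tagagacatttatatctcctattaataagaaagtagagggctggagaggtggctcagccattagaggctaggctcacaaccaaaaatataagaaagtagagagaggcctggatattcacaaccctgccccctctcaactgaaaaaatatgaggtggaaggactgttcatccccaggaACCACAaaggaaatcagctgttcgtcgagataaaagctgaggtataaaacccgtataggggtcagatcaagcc
Mecom, upstream start (chr3:30509760-30510009, minus strand): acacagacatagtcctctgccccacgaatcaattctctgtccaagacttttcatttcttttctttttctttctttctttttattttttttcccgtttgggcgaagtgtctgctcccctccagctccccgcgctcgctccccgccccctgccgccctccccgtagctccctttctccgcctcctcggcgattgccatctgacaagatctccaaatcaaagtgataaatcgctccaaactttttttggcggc
Mecom, downstream start (chr3:30013205-30013454, minus strand): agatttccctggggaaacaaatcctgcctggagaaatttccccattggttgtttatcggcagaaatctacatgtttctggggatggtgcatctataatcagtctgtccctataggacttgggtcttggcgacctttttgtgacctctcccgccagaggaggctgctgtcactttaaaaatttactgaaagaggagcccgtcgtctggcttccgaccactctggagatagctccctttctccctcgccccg
Cpa3 holds 1 copy that begins 73 bases before the start, and neither Mecom window holds one. Over windows of 250 bases before to 50 after a start, the motif occurred on either strand in 15.9% of the 9379 tested genes with a RefSeq promoter. Among genes whose library differences did not overlap between cell types it occurred in 15.1% of 1321 with a higher and in 16.5% of 1245 with a lower interaction. A promoter was listed for 4 of the 13 called genes, and 1 of them, Cpa3, held the motif. These are matches of letters and show no binding.

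Ngfr encodes the low-affinity nerve growth factor receptor. It had 62.1 and 83.7 TPM in double mutant Ly6G+ cells, against 0.351 and 0.136 TPM in wild type Ly6G+ cells. In HSCPs it had 92.0 and 92.6 TPM in the double mutant and 160 and 136 TPM in wild type. Wild type Ly6G+ cells were the only group near 0. Ngfr rose by 5.52 in double mutant Ly6G+ cells (limma, adjusted p = 0.00262), its HSCPs difference was -1.30 (adjusted p = 0.118), and the interaction was 6.82 ± 0.47 (SE, adjusted p = 0.00893). Gene-level TPM do not tell a transcript of the mouse locus from any introduced copy, for Ngfr as for Cbl and Runx1.

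**Figure D2:**
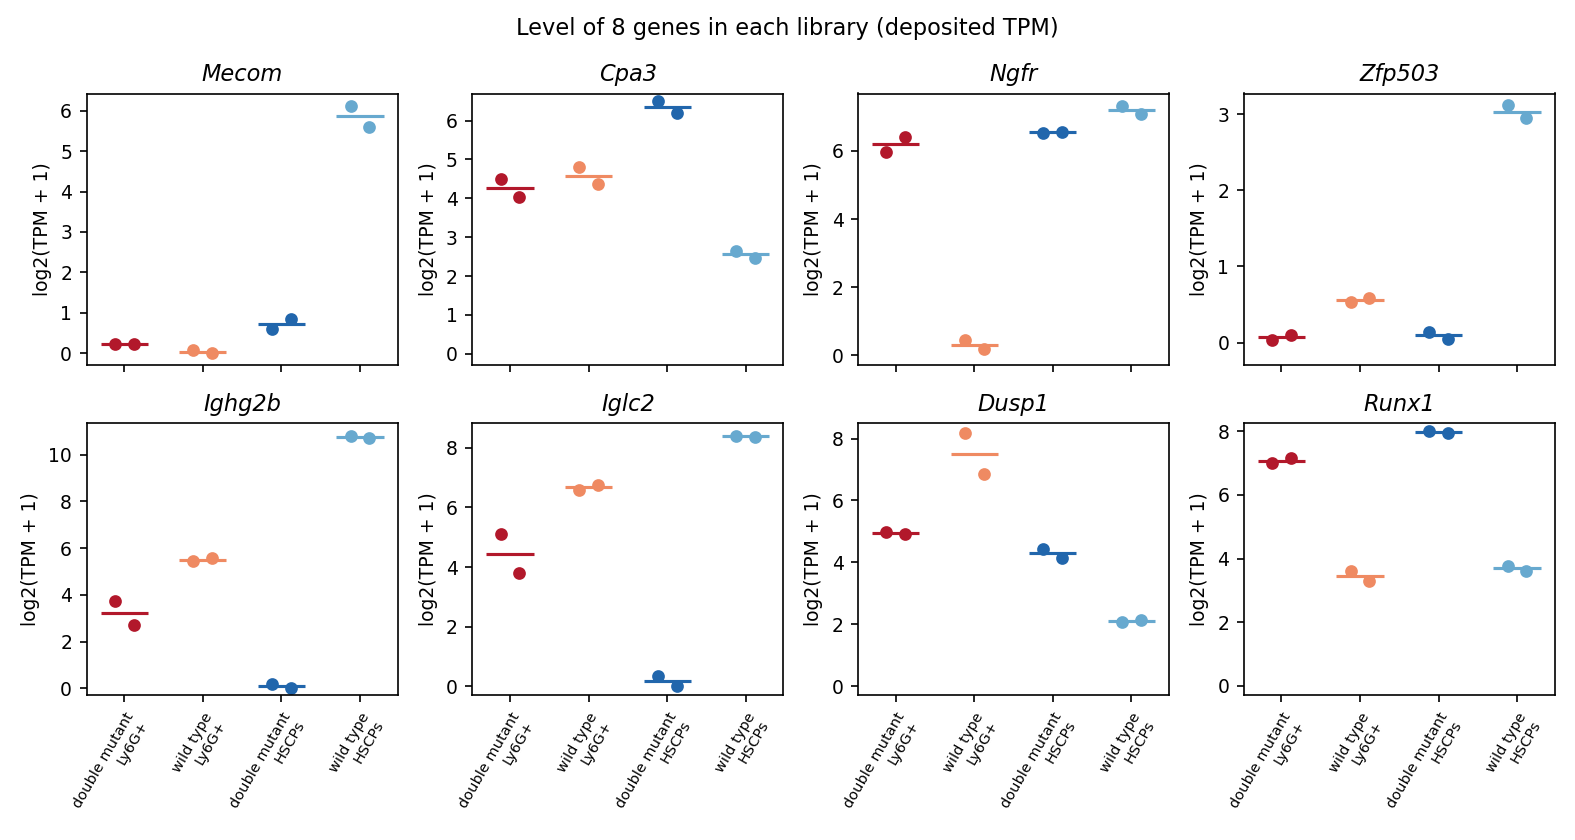
Level of 8 genes as log2(deposited TPM + 1), with a point per library and a line at the mean of each group of 2. Mecom and Zfp503 were high in wild type HSCPs alone, Ngfr was near 0 in wild type Ly6G+ cells alone, and Runx1 was higher in double mutant than in wild type libraries of both cell types.

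The other called genes are given although their level or class puts them outside the naming rule, a choice made after their values were seen. Zfp503, a zinc finger transcriptional repressor gene, had 0.0247 and 0.0749 TPM in double mutant and 0.445 and 0.505 TPM in wild type Ly6G+ cells. In HSCPs it had 0.0986 and 0.0373 TPM in the double mutant and 7.69 and 6.73 TPM in wild type, so that wild type HSCPs stood alone, as for Mecom. Its interaction was 2.60 (limma, adjusted p = 0.0353). The transcribed pseudogene 9030619P08Rik, on chromosome 15, had 69.4 and 33.4 TPM in double mutant and 47.1 and 44.5 TPM in wild type Ly6G+ cells. It had 5.85 and 5.04 TPM in double mutant HSCPs and 38.6 and 34.4 TPM in wild type HSCPs, with an interaction of 2.55 (adjusted p = 0.0305). In double mutant HSCPs Zfp503 fell by 3.22 and 9030619P08Rik by 3.11, while their Ly6G+ differences of -0.62 (adjusted p = 0.0976) and -0.55 (adjusted p = 0.104) did not pass. Zfp503 was called in 8 of 21 alternative settings and 9030619P08Rik in 11 of 23, and both lost the call with no scaling and in a fit of all 12 libraries.

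The called pseudogenes Gm10171, Gm6829 and Gm16569 were listed at 0 in most libraries, and a value of 0 in a table of estimates need not mean that no transcript was present. Gm10171 (chromosome 1) had 16.4 and 14.4 TPM in double mutant Ly6G+ cells and at most 0.000156 TPM in the other 6 libraries, with an interaction of 3.76 (limma, adjusted p = 0.0147). Gm6829 (chromosome X) had 3.40 and 3.25 TPM in wild type Ly6G+ cells and was listed at 0 elsewhere, with -2.38 (adjusted p = 0.0385). Gm16569 (chromosome 17) was listed at 0 in all double mutant libraries, and had 0.649 and 0.549 TPM in wild type Ly6G+ cells and 12.01 and 15.70 TPM in wild type HSCPs, with 3.34 (adjusted p = 0.0385). Reads of a pseudogene can be shared with its parent gene, so these levels are uncertain.

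Immunoglobulin constant genes, which mark plasma cells and B cells, made up 4 of the 13 called genes. Ighg2b, an IgG heavy chain gene on chromosome 12, had 12.2 and 5.48 TPM in double mutant Ly6G+ cells and 42.4 and 46.7 TPM in wild type Ly6G+ cells. In HSCPs it had 0.131 TPM in library 1 and was listed at 0 in library 2 of the double mutant, against 1780 and 1662 TPM in wild type. Levels were lower in the double mutant of both cell types, by 2.91 in Ly6G+ cells and by 10.97 in HSCPs, and the interaction was 8.07 ± 0.27 (SE, limma, adjusted p = 0.000464). The other 3 were Ighg2c (5.98, adjusted p = 0.0147), Ighg1 (4.82, adjusted p = 0.00685) and the lambda light chain gene Iglc2 (5.68, adjusted p = 0.00685). The gene ENSMUSG00000076660, for which no symbol was found, followed the same pattern with 6.42 (adjusted p = 0.027). Near-identical segments share reads, and the size of each HSCPs fall is limited by the added 1. In double mutant Ly6G+ cells, Ighg1 had 0.804 and 0.0581 TPM and Ighg2c 0.607 and 1.49 TPM. Both genes were thus low in all double mutant libraries. Their wild type differences between cell types were 4.51 and 5.07 in size, so their interactions largely restate the higher level in wild type HSCPs.

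The immunoglobulin list as a whole stood on one side. All 22 of its tested genes, of 25, had an interaction above 0, with a median of 4.95 against 0.01 over all genes tested, of which 51% were above 0 and 49% below. In 20 of the 22 the 4 double mutant minus wild type differences in Ly6G+ cells lay above all 4 in HSCPs, a separation that 13.8% of all genes showed. The genes took 0.0798% and 0.124% of the TPM in double mutant and 1.63% and 1.55% in wild type Ly6G+ cells. They took 0.00834% and 0.00557% in double mutant and 6.41% and 6.63% in wild type HSCPs. Mean log2 levels of the list were 6.90 and 6.64 in wild type Ly6G+ cells and 9.04 and 9.17 in wild type HSCPs. A fall to near 0 would thus be larger in HSCPs, and its part in the sign was not tested. In bulk samples such as these, fewer cells of a type and less RNA per cell cannot be told apart. Plasma cell genes lay on the same side, as 10 of the 11 tested (of 13) were above 0, with a median of 0.61, and 5 were separated. Among these, Jchain, which encodes the chain that joins IgM and IgA units, had 7.12 and 22.0 TPM in double mutant and 346 and 293 TPM in wild type Ly6G+ cells, and 0.604 and 0.911 TPM in double mutant and 1204 and 1138 TPM in wild type HSCPs. Its interaction of 4.67 did not pass (limma, adjusted p = 0.193).

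Most genes called in both cell types had the same sign in each. In Ly6G+ cells 529 genes differed between double mutant and wild type (4.19%, 212 or 1.68% higher and 317 or 2.51% lower), and in HSCPs 228 did (1.8%, 86 or 0.68% higher and 142 or 1.12% lower). With no scaling the balance turned, to 255 higher and 119 lower in Ly6G+ cells and 307 higher and 109 lower in HSCPs. Array weights, which weigh down libraries that spread widely, gave 26 genes in Ly6G+ cells and 4827 in HSCPs. Tested against a log2 change of 1, the counts were 24 and 44. The counts therefore do not tell in which cell type more genes changed. Of the genes called in both as reported, 97 had the same sign (0.767% of all genes), 25 higher and 72 lower, and Cpa3 was the exception (0.00791%). The 25 make up 4.73% of the genes called in Ly6G+ cells and 10.96% of those called in HSCPs. The size of the difference was often unequal. Of the 97 genes, 71 (73.2%) had an interaction smaller than 1 in size, against 89.3% of all genes tested, 53 (54.6%) were separated in either direction, against 27.7%, and 5 passed the interaction test. Across the 12639 genes the 2 differences, which share no library, had a Pearson r of 0.621 and a Spearman rho of 0.621. With either double mutant Ly6G+ library alone, r was 0.579 for library 1 and 0.524 for library 2. Genes are not independent replicates, and no p is given.

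Of the mutated genes, Runx1 was called in both cell types. It had 126 and 142 TPM in double mutant and 11.1 and 8.77 TPM in wild type Ly6G+ cells, and 257 and 248 TPM in double mutant and 12.7 and 11.3 TPM in wild type HSCPs. Runx1 rose by 3.02 in Ly6G+ cells (limma, adjusted p = 0.00875) and by 3.68 in HSCPs (adjusted p = 0.00265), and the interaction was -0.65 ± 0.38 (SE, adjusted p = 0.667). Cbl had 144 and 124 TPM in double mutant and 42.6 and 44.95 TPM in wild type Ly6G+ cells, and 103 and 115 TPM in double mutant and 31.0 and 17.9 TPM in wild type HSCPs. Its difference was 0.95 in Ly6G+ cells (adjusted p = 0.0842) and it rose by 1.54 in HSCPs (adjusted p = 0.0434), with an interaction of -0.59 ± 0.36 (SE, adjusted p = 0.676). These p-values do not show that the effects were equal.

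Several other regulators among the 25 rose in both cell types, and were chosen here after their values were seen. Runx3, a related RUNX factor, had 143 and 147 TPM in double mutant and 5.59 and 5.29 TPM in wild type Ly6G+ cells, and 304 and 284 TPM in double mutant and 14.9 and 10.7 TPM in wild type HSCPs. It rose by 3.91 and 3.82, with an interaction of 0.09 (limma, adjusted p = 0.95). Grap, an adaptor of the GRB2 family that links receptors to RAS signalling, rose by 2.41 in Ly6G+ cells and by 2.82 in HSCPs, at 49.1 and 44.7 TPM in double mutant and 5.01 and 5.06 TPM in wild type Ly6G+ cells. Foxo1, a forkhead factor restrained by AKT, rose by 1.04 and 1.47, and Smad1, a mediator of bone morphogenetic protein signals, by 1.27 and 1.07. Prdx4, a peroxiredoxin of the endoplasmic reticulum, rose by 1.02 in Ly6G+ cells and by 1.68 in HSCPs. Among the 10 tested RUNX family and partner genes, none passed the interaction test. Cbfa2t3, a corepressor gene, rose by 1.76 in Ly6G+ cells (adjusted p = 0.037) against 0.24 in HSCPs (adjusted p = 0.679), yet its interaction of 1.51 did not pass (adjusted p = 0.317).

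Of the gene lists examined, those of mast cells, basophils and eosinophils had the lowest interaction. All 16 tested genes, of 19, were below 0, with a median of -2.73, and 10 were separated, against 13.9% of all genes. One, Cpa3, passed the test, and adjusted p over the list ran up to 0.974. The double mutant difference had a median of -2.10 in Ly6G+ cells and of -0.01 in HSCPs. Mcpt8, a basophil protease gene, had 7.76 and 64.4 TPM in double mutant and 186 and 110 TPM in wild type Ly6G+ cells, and 41.17 and 39.998 TPM in double mutant and 21.4 and 23.5 TPM in wild type HSCPs. Gata2, a transcription factor of progenitors and mast cells, had 1.23 and 4.11 TPM in double mutant and 6.84 and 4.86 TPM in wild type Ly6G+ cells, and 32.5 and 17.9 TPM in double mutant and 5.37 and 4.82 TPM in wild type HSCPs. Both double mutant Ly6G+ libraries thus lay below wild type for both genes, and both double mutant HSCPs libraries above it. Siglecf, a surface lectin of eosinophils, fell by 1.91 in Ly6G+ cells (limma, adjusted p = 0.0158), and Fcer1a, a chain of the IgE receptor, fell in both, by 3.72 and by 2.80. Summed over the list, these genes took 0.0142% and 0.0481% of TPM in double mutant and 0.111% and 0.0913% in wild type Ly6G+ cells. They took 0.124% and 0.0577% in double mutant and 0.0365% and 0.0358% in wild type HSCPs. The median was -1.54 without double mutant Ly6G+ library 1 and -3.73 without library 2.

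**Figure D3:**
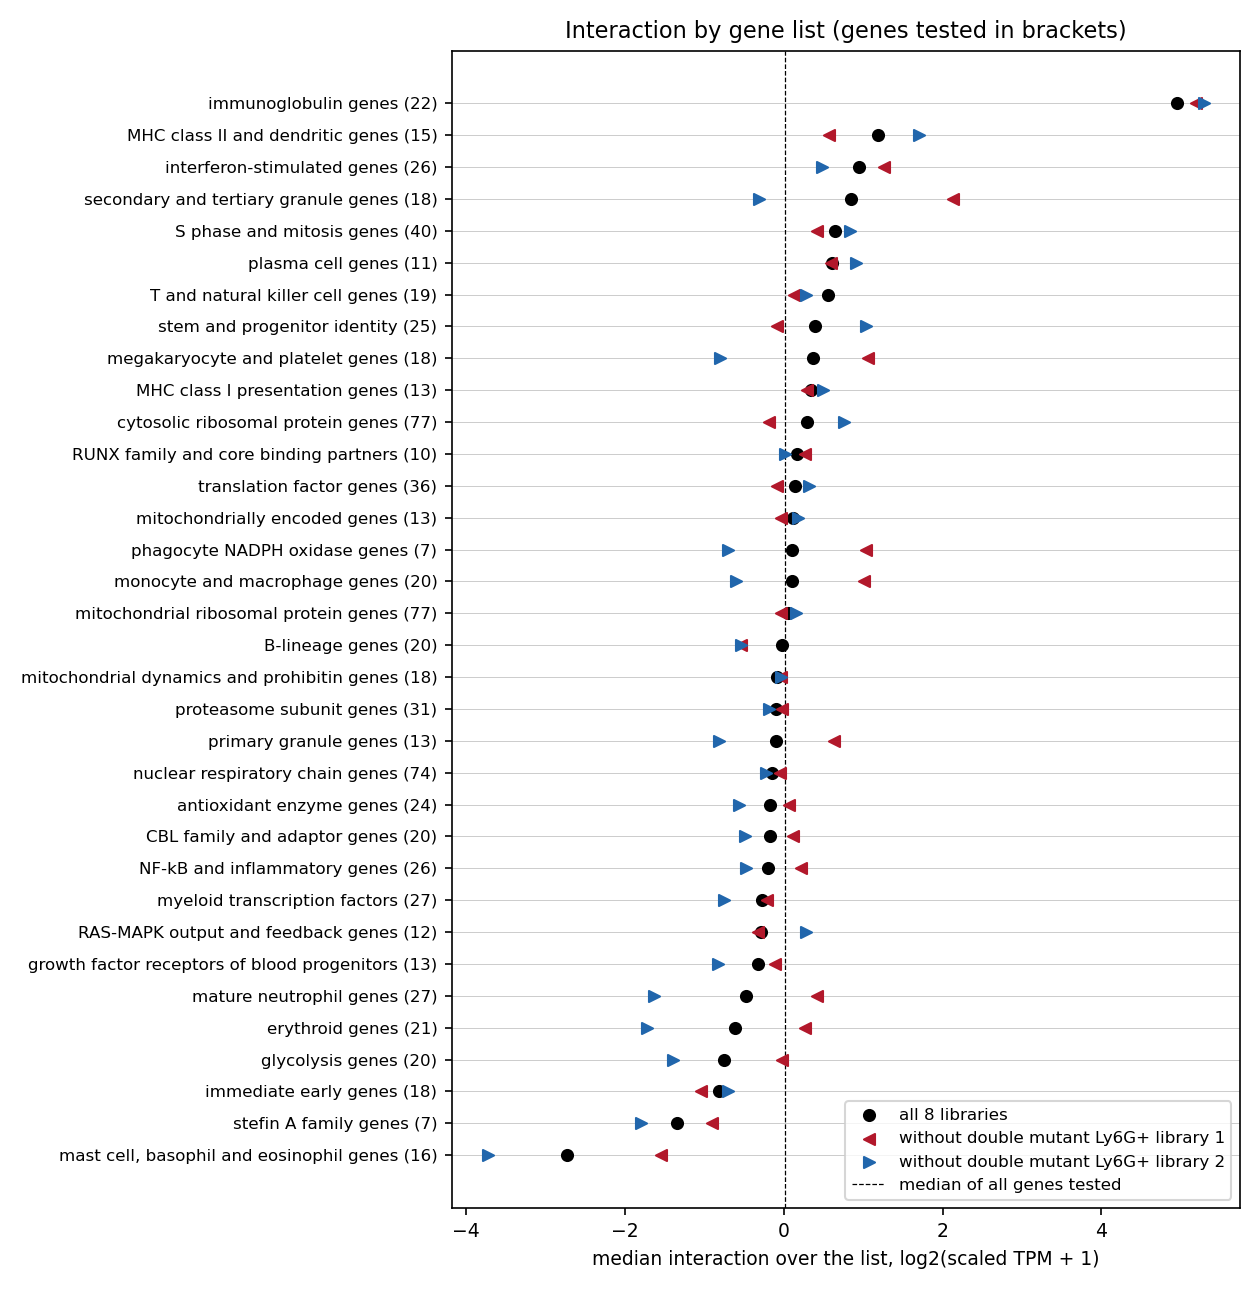
Median interaction over each of 34 gene lists, with the number of tested genes in brackets, from all 8 libraries and without either double mutant Ly6G+ library. Immunoglobulin genes (4.95) lie highest and mast cell, basophil and eosinophil genes (-2.73) lowest with all libraries, and the triangles lie on opposite sides of 0 for lists such as secondary and tertiary granule genes.

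Cell cycle genes split by role. Of 40 S phase and mitosis genes, 38 had an interaction above 0, against 51% of all genes, with a median of 0.64. Of the 40, 21 were separated, all higher, against 13.8% of all genes. The median was 0.41 without double mutant Ly6G+ library 1 and 0.83 without library 2. Divided after the values were seen, 22 mitosis genes had a median of 0.90 and supplied all 21, while 18 DNA replication genes had a median of 0.13 and supplied none. In the mitosis genes the double mutant difference had a median of 0.27 in Ly6G+ cells and of -0.61 in HSCPs, where all 22 were below 0. For replication genes these medians were 0.24 and 0.13, and their median interaction was -0.17 with double mutant Ly6G+ library 2 alone and 0.46 with library 1 alone, so its sign rests on 1 library. The mitosis median was 0.65 with double mutant Ly6G+ library 2 alone and 1.11 with library 1 alone. Mean log2 levels of the mitosis genes were 5.51 and 5.10 in double mutant and 5.16 and 4.91 in wild type Ly6G+ cells, so that these groups overlapped. They were 5.43 and 5.70 in double mutant and 6.23 and 6.23 in wild type HSCPs, which did not. Scaling lowers double mutant differences of well expressed genes in HSCPs by 0.63, so this fall is relative to most other genes. Summed over the 40 genes, the list took 0.388% and 0.403% of deposited TPM in double mutant and 0.334% and 0.302% in wild type HSCPs.

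No gene of the cell cycle list passed the interaction test. Hmmr, which encodes a spindle protein, had 30.2 and 19.6 TPM in double mutant and 15.3 and 14.5 TPM in wild type Ly6G+ cells, and 16.7 and 18.3 TPM in double mutant and 25.4 and 22.6 TPM in wild type HSCPs. It fell by 1.03 in HSCPs (limma, adjusted p = 0.0284), and its interaction was 1.098 (adjusted p = 0.193). Mcm5, a subunit of the replicative helicase, had 98.98 and 43.91 TPM in double mutant and 39.7 and 32.6 TPM in wild type Ly6G+ cells, and 152 and 147 TPM in double mutant and 92.9 and 85.3 TPM in wild type HSCPs, with an interaction of 0.11. Deposited TPM were thus higher in the double mutant of both cell types for Mcm5 and went opposite ways for Hmmr. Among genes that the naming rule adds for their small p without passing, Cenpl (1.29), Dlgap5 (1.15), Prr11 (1.70) and Prc1 (1.39) also serve the kinetochore, the spindle or cell division, with adjusted p between 0.147 and 0.159. They were picked here for this role. The rule also added Cystm1 (1.81), Tmem176b (1.91), Smtn (1.31) and Clec2i (1.64), in the same range of adjusted p. Cdkn2c, an inhibitor of the cyclin D kinases, fell by 1.67 in HSCPs (adjusted p = 0.0128) with a difference near 0 in Ly6G+ cells, and its interaction of 1.67 did not pass (adjusted p = 0.159).

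For most interferon-stimulated genes, many of which encode antiviral proteins, the double mutant difference was higher in Ly6G+ cells than in HSCPs. Of 26, 23 had an interaction above 0, against 51% of all genes, with a median of 0.95, and none passed. Separated higher were 14 (53.8%) and lower 2 (7.69%), against 13.8% and 13.9% of all genes. The median double mutant difference was 0.48 in Ly6G+ cells and -0.49 in HSCPs. Mx1, an antiviral GTPase gene, had 48.0 and 22.8 TPM in double mutant and 4.65 and 3.79 TPM in wild type Ly6G+ cells, and 10.8 and 6.01 TPM in double mutant and 7.06 and 3.96 TPM in wild type HSCPs. It rose by 2.14 in Ly6G+ cells (limma, adjusted p = 0.023), where both double mutant libraries lay above both wild type ones, and overlapped in HSCPs. Ifi44 rose by 3.59 (adjusted p = 0.0214) and Bst2, which tethers viruses and marks plasmacytoid dendritic cells, by 2.55 (adjusted p = 0.0318), both in Ly6G+ cells. The membrane genes Ifitm1 (-2.66) and Ifitm2 (-1.93) were the 2 separated lower. Ifitm1 fell by 5.55 in Ly6G+ cells, where it had 5.76 and 31.7 TPM in the double mutant and 414 and 519 TPM in wild type. The list median was 1.26 without double mutant Ly6G+ library 1 and 0.48 without library 2. Summed over the list, these genes took less of the TPM in double mutant (0.221% and 0.282%) than in wild type Ly6G+ cells (0.305% and 0.374%). They took 0.169% and 0.122% in double mutant and 0.168% and 0.170% in wild type HSCPs. Mean log2 levels were 4.85 and 5.66 in double mutant and 4.87 and 5.11 in wild type Ly6G+ cells, so these groups overlapped.

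MHC class II and dendritic cell genes had the highest median after immunoglobulins, 1.19. Of the 15 tested (of 16), 14 were above 0, against 51% of all genes, and 8 were separated, all higher, against 13.8%. H2-Aa, which encodes a class II chain, had 1069 and 368 TPM in double mutant and 103 and 124 TPM in wild type Ly6G+ cells, and 100 and 44.6 TPM in double mutant and 26.4 and 25.3 TPM in wild type HSCPs. H2-DMb1, part of the peptide loading machinery, had 99.7 and 50.6 TPM in double mutant and 14.4 and 15.5 TPM in wild type Ly6G+ cells, and 30.9 and 18.9 TPM in double mutant and 14.7 and 14.8 TPM in wild type HSCPs. Deposited TPM were higher in double mutant libraries of both cell types for both genes. On scaled values H2-DMb1 rose by 1.56 in Ly6G+ cells (limma, adjusted p = 0.0269), its HSCPs difference was 0.08 (adjusted p = 0.874), and its interaction of 1.48 did not pass (adjusted p = 0.239). The median was 0.58 without double mutant Ly6G+ library 1 and 1.70 without library 2. The list took 0.62% of TPM in library 1 and 0.202% in library 2 of double mutant Ly6G+ cells, and 0.06% and 0.0713% in wild type Ly6G+ cells. It took 0.0873% and 0.0432% in double mutant and 0.0282% and 0.0268% in wild type HSCPs. Clec9a, a marker of conventional dendritic cells, had 24.2 and 7.74 TPM in double mutant and 1.77 and 2.12 TPM in wild type Ly6G+ cells. A part of dendritic cells in the values of the list was not tested.

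**Figure D4:**
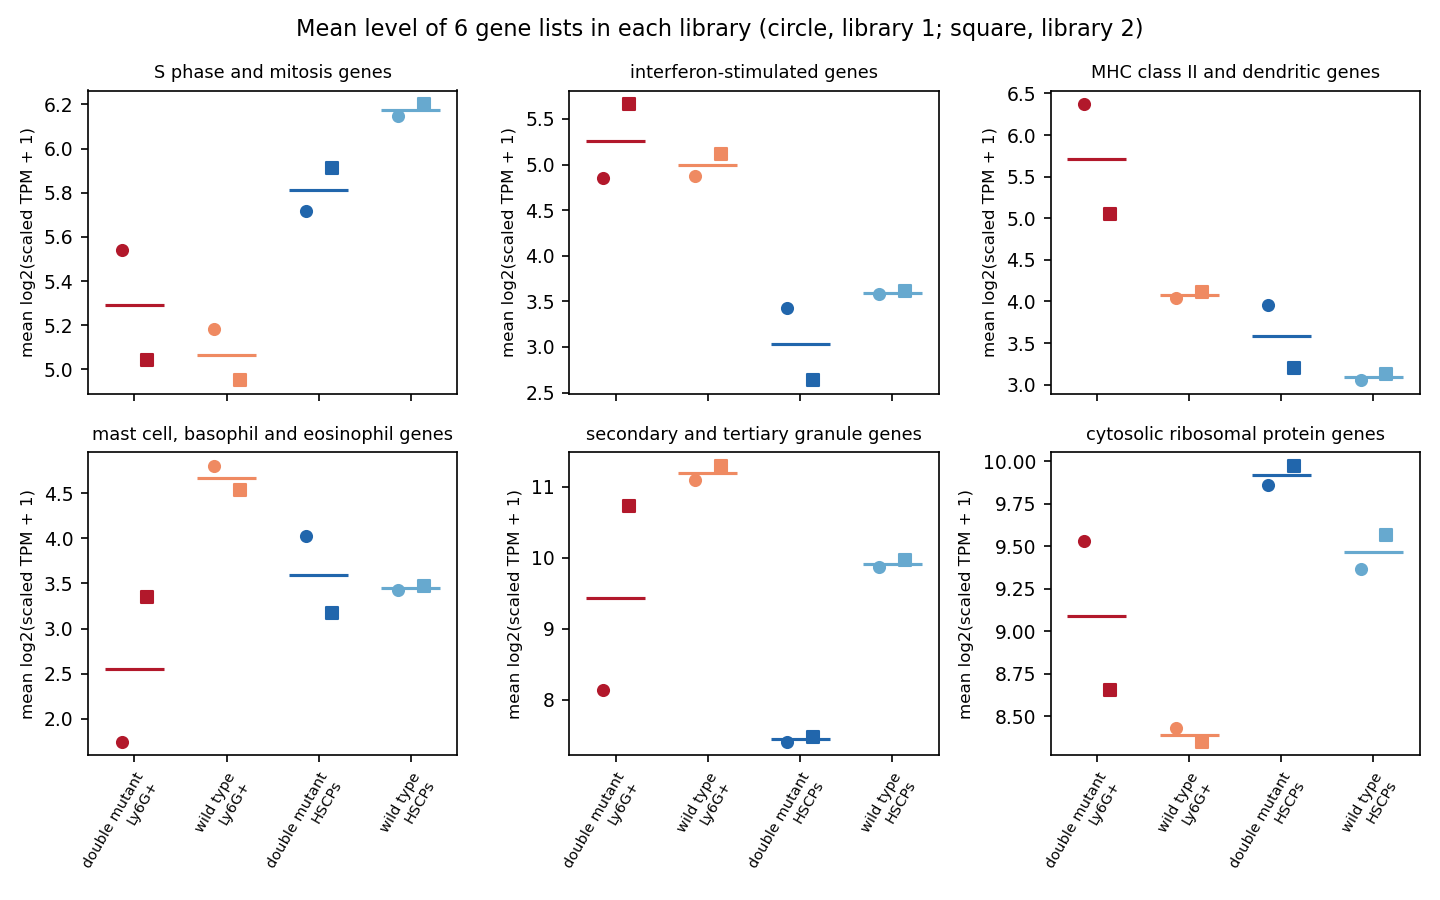
Mean log2(scaled TPM + 1) over 6 gene lists in each library, with a line at the mean of each group. The 2 double mutant Ly6G+ libraries differ widely for secondary and tertiary granule genes (8.14 and 10.72) and for cytosolic ribosomal protein genes (9.53 and 8.65), while both lie above wild type Ly6G+ cells for MHC class II and dendritic genes.

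Immediate early genes, which are transcribed within minutes of a signal, lay lower. Of 18, 15 had an interaction below 0, against 49% of all genes, with a median of -0.82, and none passed. Separated lower were 6, against 13.9% of all genes, and none were separated higher. Dusp1, which encodes a phosphatase that switches off MAP kinases, had 30.4 and 29.3 TPM in double mutant and 289 and 114 TPM in wild type Ly6G+ cells, and 20.6 and 16.7 TPM in double mutant and 3.17 and 3.37 TPM in wild type HSCPs. It fell by 3.19 in Ly6G+ cells (limma, adjusted p = 0.0214), its HSCPs difference was 1.65 (adjusted p = 0.118), and the interaction of -4.84 ± 0.60 (SE) had an adjusted p = 0.105. Jund fell by 1.06 in Ly6G+ cells (adjusted p = 0.025) with a difference of 0.06 in HSCPs, and its interaction of -1.12 had an adjusted p = 0.193. Fos had 123 and 13.9 TPM in double mutant and 304 and 46.7 TPM in wild type Ly6G+ cells, so its replicates spread widely in both. Per1, a gene of the circadian clock that also responds to signals, had 9.68 and 12.7 TPM in double mutant and 16.6 and 11.7 TPM in wild type Ly6G+ cells, and 27.2 and 45.4 TPM in double mutant and 4.26 and 2.94 TPM in wild type HSCPs. It rose by 2.43 in HSCPs (adjusted p = 0.0449), with an interaction of -3.32 (adjusted p = 0.181).

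Stefin A genes, inhibitors of cysteine proteases in neutrophils and their precursors, had double mutant differences above 0 in both cell types by their median, and none passed the interaction test (limma, lowest adjusted p = 0.354). The median difference was 1.48 in Ly6G+ cells and 2.85 in HSCPs over 7 tested genes, of 9, and the median interaction was -1.34. It ranged from -2.12 to -0.84 when 1 library other than the double mutant Ly6G+ ones was left out. BC100530 had 451 and 437 TPM in double mutant and 52.6 and 46.6 TPM in wild type Ly6G+ cells, and 320 and 633 TPM in double mutant and 16.4 and 14.5 TPM in wild type HSCPs. It rose by 2.51 and 4.17, with an interaction of -1.66 (limma, adjusted p = 0.392). In Ly6G+ cells 2 of the 7 rose and in HSCPs 4 did, against 1.68% and 0.68% of all genes. In the interaction 4 were separated lower, against 13.9% of all genes. These genes are near-identical copies, so the split of reads among them is uncertain.

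Granule, glycolysis and stem cell genes gave further values. Nkg7, a granule membrane gene of cytotoxic and myeloid cells, had 4.55 and 4.95 TPM in double mutant and 18.1 and 16.9 TPM in wild type Ly6G+ cells, and 9.29 and 9.25 TPM in double mutant and 178 and 179 TPM in wild type HSCPs. It fell by 2.25 in Ly6G+ cells and by 4.73 in HSCPs, and the interaction of 2.48 had an adjusted p = 0.107 (limma). Ldha, the lactate dehydrogenase chain of glycolytic tissues, fell by 1.25 in Ly6G+ cells (adjusted p = 0.0333), with an interaction of -1.43 (adjusted p = 0.2). Ldhb, the other main chain of the enzyme, had an interaction of 1.88 (adjusted p = 0.159), at 20.3 and 18.4 TPM in double mutant and 6.35 and 7.54 TPM in wild type Ly6G+ cells. Over 20 glycolysis genes the median was -0.75, and it was -0.02 without double mutant Ly6G+ library 1 and -1.39 without library 2. Ly6a, which encodes the stem cell antigen SCA-1, fell by 1.98 in HSCPs (adjusted p = 0.0313), and its interaction of 2.12 did not pass (adjusted p = 0.193). With an interaction below 0, the naming rule further added Gpr137b (-2.29), Card6 (-1.78), Dtd1 (-1.84), Focad (-1.58) and Blcap (-1.76). It also added Ifit1bl2 (-2.18), Klhdc2 (-1.17), Rnase12 (-3.07) and Slc25a33 (-1.86). None of these passed (limma, adjusted p between 0.138 and 0.193).

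For many lists the direction depended on a single library. The sign of the median interaction changed without 1 of the double mutant Ly6G+ libraries in 16 of 34 lists. Secondary and tertiary granule genes, such as Ltf, had a median of 0.85 with all libraries, 2.13 without double mutant Ly6G+ library 1 and -0.31 without library 2. Ltf, the lactoferrin gene, had 2765 and 9149 TPM in double mutant and 7037 and 7306 TPM in wild type Ly6G+ cells, and 720 and 402 TPM in double mutant and 3823 and 3445 TPM in wild type HSCPs. For Ltf, library 2 of the double mutant Ly6G+ cells lay above wild type and library 1 below it. The mean log2 level of the list was 8.14 and 10.72 in double mutant and 11.09 and 11.29 in wild type Ly6G+ cells, so both libraries lay below wild type there, by unequal amounts. In HSCPs it was 7.41 and 7.48 in the double mutant and 9.86 and 9.96 in wild type. Mature neutrophil genes had -0.47, with 0.42 without library 1 and -1.64 without library 2. Ribosomal protein genes had 0.30, with -0.19 and 0.76, stem and progenitor genes 0.40, with -0.08 and 1.03, and erythroid genes -0.61, with 0.27 and -1.72. No direction of the interaction is therefore given for these lists.

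Respiratory, translation and protein turnover genes lay close to the median of all genes in size, though some lists leaned to one side. Above 0 were 18 of 74 nuclear respiratory chain genes and 6 of 31 proteasome genes, against 51% of all genes. For mitochondrial ribosomal protein genes it was 51 of 77 and for translation factor genes 25 of 36. Nuclear respiratory chain genes had a median interaction of -0.15 over 74 genes, mitochondrial ribosomal protein genes 0.06 over 77, proteasome genes -0.10 over 31 and translation factor genes 0.14 over 36, and none of their genes passed. CBL family and adaptor genes had -0.17 over 20 genes and growth factor receptors -0.32 over 13, also with none passing. Without double mutant Ly6G+ library 1 and without library 2, the medians were -0.04 and -0.22 for respiratory chain genes, -0.03 and 0.15 for mitochondrial ribosomal protein genes and -0.02 and -0.18 for proteasome genes. They were -0.08 and 0.32 for translation factor genes, 0.12 and -0.48 for CBL family and adaptor genes, and -0.12 and -0.83 for growth factor receptors, so 3 of these 6 lists changed sign.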

How the data were processed

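The deposited table holds TPM that the authors made, per the submitters' processing notes, with bcl2fastq, CASAVA 1.8 and kallisto on the build mm10; the kallisto version, the annotation and the joining of transcripts to genes are not given in the sources used here. Replicates were deposited separately. TPM of 8 libraries were scaled with trimmed mean factors (trimming 0.3 of log ratios and 0.05 of levels) and tested as log2(scaled TPM + 1) with limma 3.58.1 in R 4.3.3, with group means, a trended and robust variance, 4 residual degrees of freedom and Benjamini-Hochberg adjustment over 12639 genes. The SE thus pools the spread of 4 groups. An exact permutation test of 2 against 2 libraries cannot go below p = 0.333.

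The contrast and the 35 gene lists were chosen with earlier results of these data known, and lists were only counted. "Separated" means that all 4 library differences in one cell type exceed all 4 in the other, a rule set after values were seen. Named genes are Cbl, Runx1, the 12 per direction with the largest called interaction or else the smallest p, at a mean log2 level of at least 2 and without predicted or immunoglobulin genes, and the leading genes of each list; others were chosen after their values were seen. Of the tested genes 98.2% had a symbol. Coordinates are those of GENCODE M21 (GRCm38). The fit was tested on simulated data in which each gene spread alike in all 8 libraries. The wider spread of the double mutant Ly6G+ libraries was therefore not covered by that test. Lists not described in the text appear only in the plot of list medians, except the sex-linked list, with 1 tested gene, which is not shown.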

Additional observations from a re-analysis of the deposited data

Results flagged for a closer look

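By the limma interaction test with Benjamini-Hochberg adjustment over all genes tested, 13 genes passed. The interaction was 6.82 for Ngfr, 5.68 for Mecom, 2.60 for Zfp503 and 2.55 for 9030619P08Rik, and -4.13 for Cpa3. It was 8.07 for Ighg2b, 5.98 for Ighg2c, 4.82 for Ighg1, 5.68 for Iglc2 and 6.42 for ENSMUSG00000076660. Among pseudogenes it was 3.76 for Gm10171, 3.34 for Gm16569 and -2.38 for Gm6829. All are on the scale log2(scaled TPM + 1), and each group has 2 libraries. For Mecom, Zfp503, Gm10171, Gm16569 and Gm6829 only 1 group reached 1 TPM. Their interaction largely restates the difference within 1 cell type and is no comparison of an effect between cell types.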

How the results depend on the processing

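Of the named genes, the 37 that are called, chosen by p or mutated were recomputed under each setting, and none reversed in 835 values. Of these values, 676 kept their side of the threshold, 107 lost the call and 52 gained it. Only the 13 called genes could lose a call, so the 107 are to be read against their values alone. Most gains came from fits without 1 of the double mutant Ly6G+ libraries. Leaving out each library in turn gave 1 to 4669 interaction calls, 2 to 7893 for the Ly6G+ comparison and 18 to 4641 for the HSCPs comparison; a group left with 1 library is then assumed to vary like the others. Counts for the interaction, 13 as reported (11 above and 2 below 0), were 31 with a pseudocount of 5 (14 above and 17 below). They were 6 without abundant lineage genes, and lay within 1.5 times under the other settings that keep all libraries and use no block. With no filter on low values, and in a fit of all 12 libraries, 10 lay above and 9 below 0. Ly6G+ counts, 529 as reported (212 higher and 317 lower, against 255 and 119 with no scaling), were 305 with a pseudocount of 0.1, 343 with no filter on low values, 1042 in a fit of all 12 libraries, 26 with array weights and 24 against a log2 change of 1. HSCPs counts, 228 as reported, were 416 with no scaling (307 higher and 109 lower, against 86 and 142), 4827 with array weights and 44 against a log2 change of 1. The cause of these shifts was not tested.

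The labels do not say what the shared replicate numbers mark. The replicate differences of groups with the same number correlated at 0.206 between the 2 Ly6G+ groups and at -0.0099 to 0.0462 for the other pairs of groups, and with 2 libraries a group this does not settle whether the numbers pair them, so no pairing was assumed. With the replicate number as a block the counts were 7 for the interaction, 203 for Ly6G+ cells and 105 for HSCPs, and pairing the 2 cell types within each genotype as a replicate block left 2 interaction calls. Depth is unknown, so it cannot be said which low values lie under a detection limit.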

Other observations

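Single mutant HSCPs, which do not enter the contrast, gave the following levels of the called genes, with no comparison made. Mecom had 20.2 and 13.8 TPM in CBL mutant and 4.15 and 1.62 TPM in RUNX1 mutant HSCPs. Cpa3 had 15.3 and 10.4 TPM in CBL mutant and 1181 and 48.2 TPM in RUNX1 mutant HSCPs, whose libraries thus differed widely. Zfp503 had 0.0721 and 0.0693 TPM in CBL mutant HSCPs, and 67.5 and 0.0686 TPM in the RUNX1 mutant ones. Ngfr had 0.030 and 0.0431 TPM in CBL mutant HSCPs and 49.6 and 168 TPM in RUNX1 mutant HSCPs. Gm10171 was listed at 0 in all 4 of these libraries, as it was in all HSCPs of the contrast.

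The gene Rps12, a ribosomal protein gene that every cell uses, was listed at 3431 and 1112 TPM in double mutant and 410 and 702 TPM in wild type Ly6G+ cells, yet under 0.01 TPM in all 4 HSCPs libraries of the contrast. It was the 1 gene with under 0.01 TPM in every HSCPs library and over 100 TPM in every Ly6G+ library, and 0 genes showed the reverse. The cause was not tested.

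The predicted gene Gm15272 had 172 and 133 TPM in double mutant Ly6G+ cells, against 0.369 TPM in library 1 and a listed 0 in library 2 of wild type Ly6G+ cells. In HSCPs it had 825 and 863 TPM in the double mutant, against 0.954 TPM in library 1 and a listed 0 in library 2 of wild type. Of the 25 genes higher in both cell types it had the largest difference in each, with an interaction of -2.17 that did not pass (limma, adjusted p = 0.265).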
